A study of Mus musculus with 21 samples.

Results

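MHC class I presentation genes were described here in 2 mouse models of acute myeloid leukaemia (AML), over 21 RNA sequencing libraries. The members are 10 genes taken by symbol: the heavy chains H2-K1 and H2-D1, the light chain B2m, the peptide transporter and loading genes Tap1, Tap2 and Tapbp, the immunoproteasome subunits Psmb8, Psmb9 and Psmb10, and the transcriptional activator Nlrc5. All 10 were listed in each of the 3 expression tables, which together hold 16780 genes, and all 10 passed the filter on low values in each table.

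The cells are established mouse AML lines kept in medium with stem cell factor. The first line was transformed by a flag-tagged fusion of NUP98 and NSD1 and received DMSO, the vehicle, or UNC1999 or JQEZ5 at 3 µM for 4 days, with 3 libraries per group. Both compounds inhibit PRC2, the complex that methylates histone H3 at lysine 27. NUP98-NSD1 cells also took up pLKO.1-puro lentivirus that was empty (shEV) or coded for an shRNA to Kdm5b (shKdm5b), with puromycin selection in both groups and 3 libraries each. Kdm5b is a histone H3 lysine 4 demethylase. The other line was transformed by the MLL-AF9 fusion and took up MSCV-neo retrovirus that was empty (EV) or carried Kdm5b as wild type (WT) or as the demethylase-dead mutant H499A, with 2 libraries each. Every group, the controls included, thus carries a leukaemia fusion, and the vector groups carry a virus besides. The number of clones behind each line is not given by the labels, nor is whether libraries of a group came from separate cultures, so p-values may measure technical spread only.

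MHC class I molecules show peptides from inside the cell to cytotoxic T cells. Proteasomes cut proteins into peptides, the TAP1-TAP2 transporter moves the peptides into the endoplasmic reticulum, and tapasin (Tapbp) bridges the transporter to an empty heavy chain paired with beta-2 microglobulin (B2m). Interferon gamma swaps the 3 catalytic subunits of the standard proteasome for PSMB8, PSMB9 and PSMB10, which changes the peptides made. NLRC5 has no DNA-binding domain of its own and acts on an X and Y box platform at class I genes that RFX, CREB/ATF and NF-Y factors occupy. Loss of class I expression is a known route by which tumours escape T cells, and PRC2 is known to hold class I genes down in some cancers.

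The genes lie on 3 chromosomes of GRCm38 (GENCODE M21). H2-K1 is at chr17:33996017-34000347 on the minus strand and H2-D1 at chr17:35262730-35267499 on the plus strand. Between them, as direct neighbours, lie Psmb9 (chr17:34181987-34187764, minus strand), Tap1 (chr17:34187553-34197225), Psmb8 (chr17:34197721-34201454) and Tap2 (chr17:34203527-34216321), the last 3 on the plus strand, in the class II part of the MHC. Tapbp is at chr17:33915899-33929292 on the plus strand, B2m at chr2:122147686-122153083 on the plus strand, Psmb10 at chr8:105935735-105938444 on the minus strand and Nlrc5 at chr8:94434356-94527272 on the plus strand. The RefSeq starts of Psmb9 (34187330) and Tap1 (34187556) leave 225 bases between divergent genes.

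The sequence upstream of H2-K1 is shown because it holds, within 250 bases, the elements through which class I genes are textbook targets of NF-kappaB, interferon regulatory factors (IRF) and the NLRC5 platform. It comes from RefSeq promoter sequences (GRCm38.p6), in which 8 of the 10 members were matched. Capitals mark matches to 4 motifs, each searched on both strands over the 250 bases before the start: IRF core AANNGAAA, NF-kappaB (GGGA, then any 4 bases, then CC), the core of the X2 box TGACG and the Y box CCAAT. The motifs were chosen after the sequences were seen. In H2-K1 the NF-kappaB letters match on both strands 1 base apart, and no other motifs overlap.
H2-K1 upstream, chr17:34000348-34000597, minus strand: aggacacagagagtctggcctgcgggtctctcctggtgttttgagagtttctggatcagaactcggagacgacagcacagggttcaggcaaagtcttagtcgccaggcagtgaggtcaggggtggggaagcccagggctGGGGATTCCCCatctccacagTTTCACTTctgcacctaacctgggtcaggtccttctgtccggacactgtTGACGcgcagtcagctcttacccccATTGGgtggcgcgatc

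Of 27025 promoter windows of the same length, 21.6% held the IRF core, 17.3% the NF-kappaB motif, 17.9% the X2 core and 34.5% the Y box, and 61 (0.226%) held all 4. H2-K1, H2-D1 and B2m were among those 61. The 4 motifs sit as adjacent pairs in each of the 3 genes, shown as an NF-kappaB and IRF pair and then as an X2 and Y pair.
H2-K1, chr17:34000430-34000458, minus strand: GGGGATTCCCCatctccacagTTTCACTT
H2-D1, chr17:35262923-35262951, plus strand: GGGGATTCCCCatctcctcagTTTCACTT
B2m, chr2:122147550-122147570, plus strand: AACTGAAAatGGGAAAGTCCC
H2-K1, chr17:34000359-34000388, minus strand: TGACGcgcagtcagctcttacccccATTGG
H2-D1, chr17:35262993-35263022, plus strand: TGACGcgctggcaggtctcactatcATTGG
B2m, chr2:122147609-122147638, plus strand: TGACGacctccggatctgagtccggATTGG
In each of the 3 X2 and Y pairs exactly 20 bases separate TGACG from ATTGG, and this spacing occurred in 25 of the 27025 windows (0.0925%), on either strand. The upstream windows of H2-K1 and H2-D1 aligned over 177 columns at 91% identity, so their shared elements are not independent of each other. In GENCODE the windows of H2-D1, Tap1, Tapbp, Psmb8 and Psmb9 lie wholly within annotated exons, and that of Psmb10 over 52 bases. The interval between Psmb9 and Tap1 held TGACG and CCAAT, Tapbp held CCAAT, and Psmb8 and Psmb10 held none of the 4 motifs in these windows. A match in letters is a description and does not show that a factor binds.

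Whole counts recovered from the deposited values gave inhibitor-experiment libraries of 12.8 to 18.9 M reads, knockdown libraries of 21.3 to 34.8 M and overexpression libraries of 17.3 to 20 M. Kdm5b, the targeted gene, was at 61.6, 94.8 and 67.0 normalised counts with shEV and 34.1, 28.8 and 23.2 with shKdm5b, and at 114 and 128 with EV, 1409.6 and 1416 with WT and 309 and 279 with H499A, so every library was on the side its label gives. Library shKdm5b replicate 1 stood apart from the other shKdm5b libraries, by a chi-square of 17 to 18.3 for each degree of freedom. All 10 myeloid progenitor and leukaemia markers were listed in every group, but their levels moved both ways. Of 10 tested, 3 rose and 4 fell with UNC1999 (all genes, 23.9% and 24%). With JQEZ5 3 rose and 3 fell (13.1% and 10.5%), and with shKdm5b 4 rose and 1 fell (15% and 17.4%). Of 9 tested, 5 rose and 4 fell with WT (29.8% and 32.4%), and 3 rose and 3 fell with H499A (22.7% and 26.9%). The part of these markers in the class I differences was not tested. The T cell genes Cd3e, Cd4 and Cd8a and the B cell genes Ms4a1 and Pax5 were at 0 or not listed in all 8 groups. Of the B and T cell lists Cd79b, a B cell receptor chain, and Nkg7, a cytotoxic granule gene, passed the filter on low values, Nkg7 in MLL-AF9 cells only. Cd79b was lower with UNC1999, JQEZ5 and shKdm5b than in their controls (0.451, 0.357 and 0.210 times) and with WT (0.718 times EV), and higher with H499A (2.08 times EV), and Nkg7 was lower with WT and H499A (0.161 and 0.418 times EV), all called, and their part in the class I differences was not tested. Nkg7 passed the filter (145 normalised counts) only through EV, at 309. In the knockdown Cd79b passed it (86.6) only through shEV, at 332. Those calls are not independent of that selection. The counts of 10 monocyte and macrophage markers, summed, differed between groups and are given beside the results. In bulk RNA, fewer cells of a type and less RNA per cell cannot be told apart.

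In all 8 groups the 3 genes of the class I molecule itself had the highest levels per kb of exon, by a wide margin in NUP98-NSD1 cells and a narrower one in MLL-AF9 cells. Per kb of exon, counts scaled to library total (CPM, counts per 1000000) in DMSO libraries were 2949 ± 25.6 for B2m, 721 ± 11.7 for H2-D1 and 371 ± 7.11 for H2-K1 (SD, n = 3). Tapbp followed at 28.2 ± 0.646, and Nlrc5 was lowest at 3.42 ± 0.192. The order B2m, H2-D1, H2-K1 also held in shEV and EV, with H2-K1 at 151 ± 0.115 and Psmb8 next at 83.0 ± 0.349 in EV (SD, n = 2). The lowest members in shEV and EV were Psmb9 (1.52 ± 0.136) and Nlrc5 (3.14 ± 0.0801), respectively. Exon lengths are those of all GENCODE transcripts together, so a level per kb is approximate where a short form prevails.

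The 3 control groups differed widely in the processing genes. Levels across tables are given in CPM as a description with no test, since the tables were normalised separately and culture, virus and library preparation cannot be told apart from the table. Both NUP98-NSD1 controls carry the same fusion. Psmb8 was at 62.7 ± 2.76 CPM in DMSO and 10.0 ± 0.763 in shEV, Psmb9 at 31.2 ± 2.37 and 5.58 ± 0.497, and Tap2 at 63.1 ± 1.57 and 14.3 ± 0.431. DMSO was thus 6.26 times, 5.60 times and 4.40 times shEV, beside 2.37 for H2-K1, 2.66 for H2-D1, 3.26 for B2m, 2.32 for Tap1 and 2.11 for Tapbp. Psmb10 and Nlrc5 went the other way: Psmb10 was at 15.2 ± 1.51 CPM in DMSO and 42.6 ± 1.94 in shEV, and Nlrc5 at 29.1 ± 1.63 and 40.9 ± 0.254. So the 3 immunoproteasome subunits, products that work in 1 particle, did not order these controls alike.

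MLL-AF9 control cells had the lowest class I heavy and light chains of the 3 control groups and the highest processing genes. H2-D1 was at 589 ± 2.54 CPM and B2m at 629 ± 13.7 CPM in EV (n = 2), the lowest of all 8 groups for both. Psmb8 was at 281 ± 1.18 CPM in EV, 28.0 times its shEV level, and Tap2 at 174 ± 2.05 CPM, 12.2 times shEV. Tap1, Tapbp, Psmb9 and Psmb10 were likewise higher in EV than in both NUP98-NSD1 controls, with no overlap between libraries. Nlrc5, which is known to raise class I transcription, was at 26.7 ± 0.680 CPM in EV, below both other controls.

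**Figure D1:**
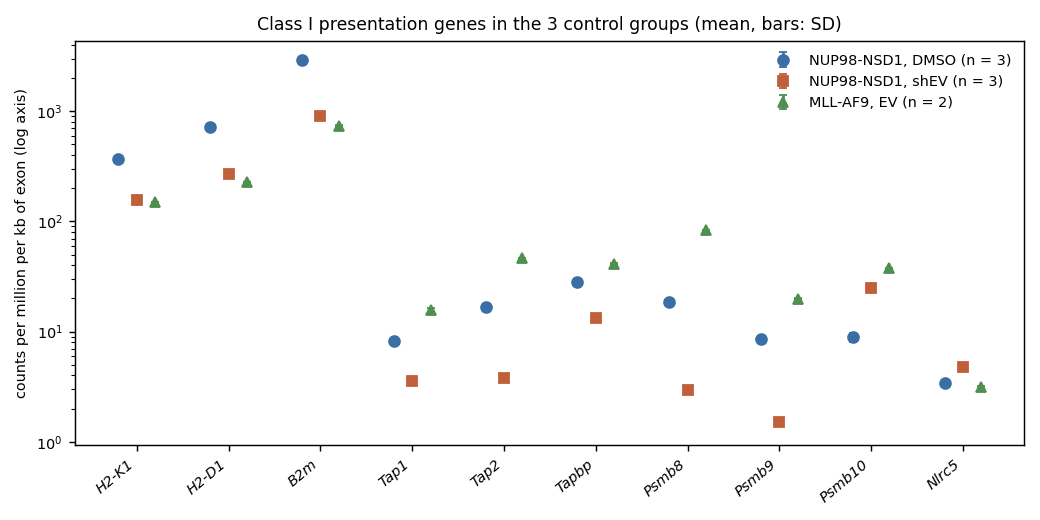
Levels of the 10 members in the 3 control groups, in CPM per kb of exon on a log axis, as means with SD (n = 3, 3 and 2). B2m, H2-D1 and H2-K1 are the top 3 in each group, while Psmb8 ranges from 10.0 CPM in shEV to 281 CPM in EV before division by length.

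Ordered over all 8 groups by CPM, H2-K1, H2-D1 and B2m were highest in the 3 inhibitor-experiment groups and lowest in EV. For H2-K1 the 3 top groups, UNC1999 (1144 ± 31.6 CPM), JQEZ5 (1116 ± 36.6) and DMSO (1091 ± 20.9), overlapped in neighbouring pairs, and so did shKdm5b (523 ± 35.5) with WT (494 ± 19.7) and H499A (464 ± 1.07) with shEV (461 ± 5.69). Tap1, Tap2, Psmb8 and Psmb9 were highest in EV, then in WT and H499A in that order with no overlap, then in the inhibitor groups, where neighbours overlapped, and lowest in the knockdown groups. Tapbp ran H499A (211 ± 2.07 CPM), WT (190.2 ± 1.13) and EV (149 ± 2.05), again without overlap. Psmb10 was highest in WT (76.2 ± 0.524 CPM) and lowest in UNC1999 (8.72 ± 1.05). Nlrc5 was highest in shEV and lowest in WT (23.1 ± 0.0242 CPM), and JQEZ5, H499A and WT overlapped in neighbouring pairs.

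**Figure D2:**
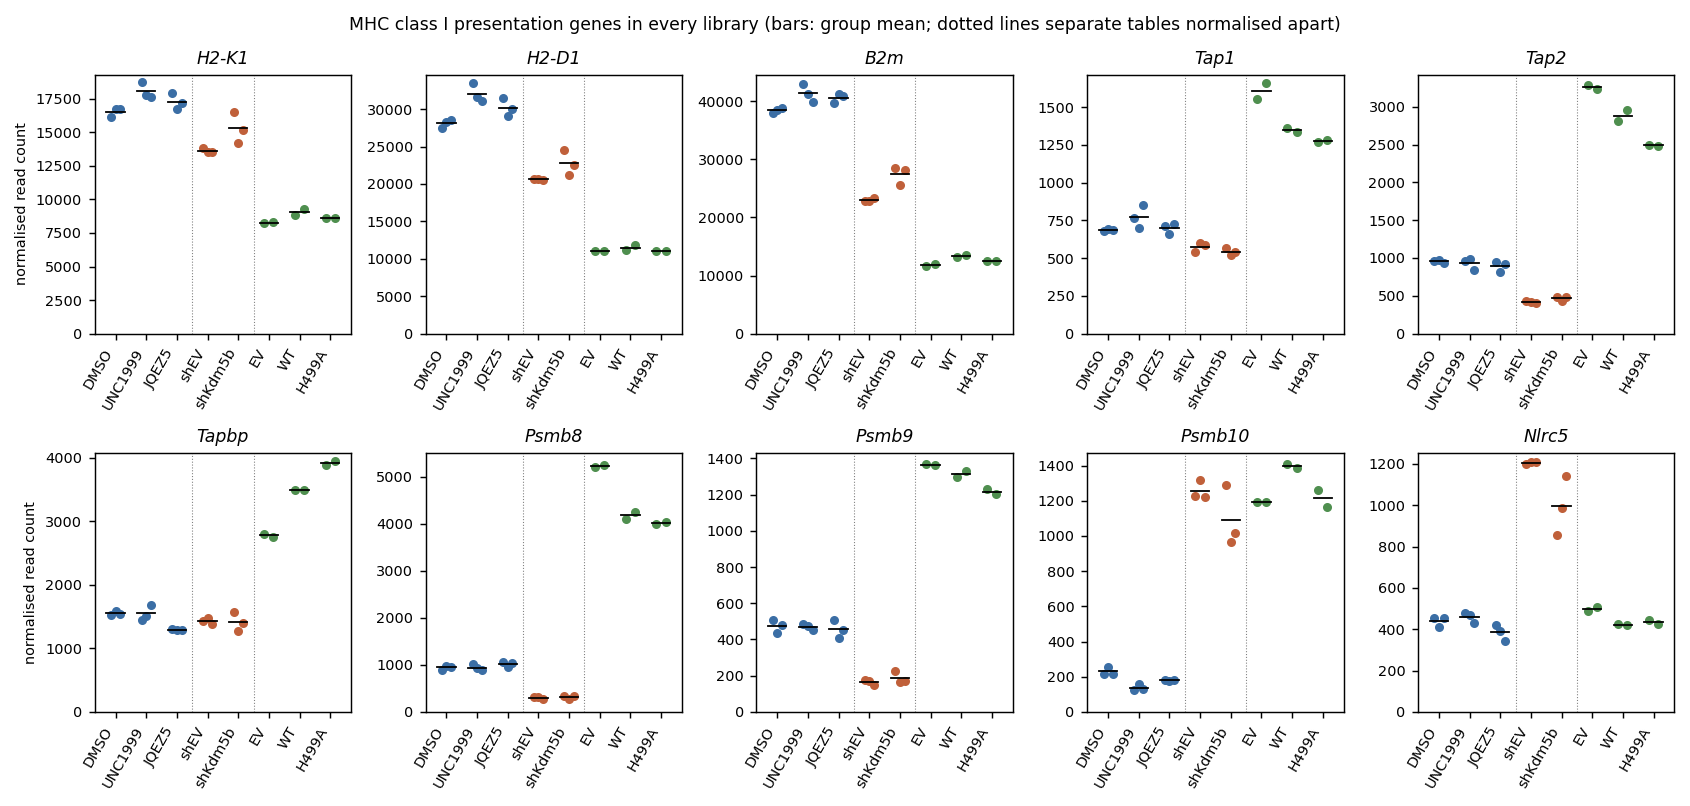
Normalised read counts of the 10 members in all 21 libraries, 1 panel per gene with its own axis from 0, points for libraries, bars for group means, and dotted lines between tables that were normalised apart. Within a table the groups lie close together for most members, for example H2-K1 at 8267 to 9272 in the MLL-AF9 libraries.

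UNC1999 was compared with DMSO to ask what PRC2 inhibition does to these cells. RNA of the class I molecule rose a little. In normalised counts H2-K1, H2-D1 and B2m were each higher with UNC1999, by 9.33%, 14% and 7.63%, though B2m was lower after quantile normalisation. Psmb10, an immunoproteasome subunit, fell by 40.1%. The other 6 members, among them both transporter genes and Nlrc5, did not pass the test. In all, 4 of 10 members were called, 3 higher and 1 lower, at an adjusted p under 0.05, where 47.9% of all genes tested were called (23.9% higher and 24% lower), so the count itself is near the background.

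H2-D1, a classical heavy chain, was at 27548, 28331 and 28582 normalised counts with DMSO and 33509, 31634 and 31104 with UNC1999. All 3 UNC1999 libraries lay above all DMSO libraries, with a log2 difference on the deposited scale, which compresses genes of low count, of 0.19 ± 0.034 (SE; limma adjusted p = 0.000281). H2-K1, the other classical heavy chain, was at 16126, 16721 and 16759 with DMSO and 18787, 17774 and 17673 with UNC1999, also without overlap (0.13 ± 0.032; limma adjusted p = 0.00400). Both heavy chain calls held under every alternative run. B2m was at 37957, 38435 and 38895 against 43033, 41255 and 39791, again separate (0.10 ± 0.030; limma adjusted p = 0.00852), but after quantile normalisation its difference was -0.045 (limma adjusted p = 0.208), which ends the call and turns the direction. In CPM the B2m libraries overlapped, with UNC1999 replicate 3 at 2533 and DMSO replicate 3 at 2556. H2-K1 and H2-D1 share 22.8% and 26.9% of their 31-base words with other genes, mostly each other and H2-Q genes, so how reads were divided between them is uncertain.

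Psmb10 was at 216, 256 and 218 normalised counts with DMSO and 127, 156 and 130 with UNC1999, so the groups were far apart relative to their spread (-0.39 ± 0.059; limma adjusted p = 5.55e-05). The log2 scale is compressed at this level, and a voom fit of the recovered counts put the difference at -0.73 (limma adjusted p = 7.84e-05). The other catalytic subunits overlapped DMSO. Psmb8 was at 901, 983 and 965 against 1009.6, 937 and 883, with a 95% interval of -0.11 to 0.094 for the log2 difference, and Psmb9 at 506, 435 and 478 against 483, 477 and 451, with -0.13 to 0.12.

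Among the genes that supply and load peptide, Tap1, which forms the transporter with Tap2, was at 682, 695 and 685 with DMSO and 763, 697 and 852 with UNC1999, all 3 above the DMSO libraries. Its log2 difference of 0.13 ± 0.052 did not pass (limma adjusted p = 0.0605) and passed without UNC1999 replicate 2 (limma adjusted p = 0.0101). Tap2 was at 964, 969.9 and 932 against 961, 993 and 837, and Tapbp at 1525, 1587 and 1534 against 1453, 1516 and 1681, both overlapping DMSO. Nlrc5 was at 453, 411 and 457 with DMSO and 479, 470.0 and 432 with UNC1999, overlapping, with a 95% interval of -0.074 to 0.16. In all, 5 of 10 members had libraries that did not overlap between the groups, where 55.1% of tested genes had.

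JQEZ5 was compared with the same 3 DMSO libraries, so its differences are not independent of those of UNC1999. The loading gene Tapbp, the subunit Psmb10 and H2-D1 passed the test, the first 2 lower and the last higher, and 3 of 10 compares with 23.6% of all genes tested (13.1% higher, 10.5% lower). Tapbp, whose product tapasin edits the peptides that class I molecules keep, was at 1525, 1587 and 1534 with DMSO and 1306, 1284 and 1295 with JQEZ5. The JQEZ5 libraries were tightly grouped below all DMSO libraries (-0.22 ± 0.043; limma adjusted p = 0.00119), a call kept under every alternative. Psmb10 was at 183, 173 and 181 with JQEZ5, also below DMSO (-0.20 ± 0.059, and -0.35 by voom; limma adjusted p = 0.0238), but the adjusted p was 0.127 without DMSO replicate 2, 0.0761 without JQEZ5 replicate 2 and 0.0616 without JQEZ5 replicate 3.

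H2-D1 was at 31558, 29139 and 29963 with JQEZ5 (0.10 ± 0.034; limma adjusted p = 0.0407), higher than DMSO in 3 of 3 libraries. This call was lost without any 1 of the DMSO libraries or without JQEZ5 replicate 1 or 3, with limma adjusted p of 0.0702 to 0.164, and also with no filter, median centring, quantile normalisation or no trend. H2-K1 at 17906, 16707 and 17208 overlapped DMSO, and B2m at 39628, 41274 and 40944 lay above it, and neither passed (limma adjusted p = 0.188 and 0.066), though B2m passed in 4 of 16 fits. Nlrc5 was at 423, 394 and 343 (-0.13 ± 0.056; limma adjusted p = 0.11). Tap1, Tap2, Psmb8 and Psmb9 overlapped DMSO and did not pass, with log2 differences from -0.083 to 0.082. In 4 of 10 members the libraries did not overlap between groups, where 41.6% of tested genes had no overlap.

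The inhibitors were tested directly against each other at the same dose and time, 1 pair of compounds, with p-values adjusted over all genes tested. Tapbp was 1.2 times as high with UNC1999 (0.22 ± 0.043; limma adjusted p = 0.000793), kept under every alternative. Psmb10 was lower with UNC1999 (-0.19 ± 0.059, and -0.38 by voom; limma adjusted p = 0.0189) and Nlrc5 higher (0.17 ± 0.056; limma adjusted p = 0.0228). Without 1 library these 2 calls were lost: Psmb10 without JQEZ5 replicate 1 or 3 or UNC1999 replicate 1 (limma adjusted p = 0.0593, 0.0569 and 0.066), and Nlrc5 without JQEZ5 replicate 3 or UNC1999 replicate 1 or 2 (limma adjusted p = 0.13, 0.0731 and 0.0657). These 3 of 10 compare with 36.4% of all genes tested (18.7% higher, 17.7% lower), and the same 3 had libraries that did not overlap, where 45.2% of tested genes had. For the class I molecule no difference between the inhibitors passed, with unadjusted 95% intervals of -0.0031 to 0.13 for H2-K1, 0.014 to 0.16 for H2-D1 and -0.038 to 0.089 for B2m on the log2 scale, though H2-D1 passed as higher with UNC1999 in 6 of 16 fits, among them median centring and voom (limma adjusted p = 0.0457 and 0.0413), and H2-K1 in 2 of 16 fits, with quantile normalisation and without JQEZ5 replicate 1 (limma adjusted p = 0.00408 and 0.047).

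Monocyte and macrophage markers moved with both treatments. Their summed level was 7407 to 7553 CPM with DMSO, 16040.3 to 16499 with UNC1999 and 12167 to 12266 with JQEZ5, and 9 of 10 rose under each inhibitor. The part of this shift in the class I values was not tested.

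Knockdown of Kdm5b in NUP98-NSD1 cells was compared with the empty vector. B2m, the light chain that every class I molecule needs, rose by 19.5%, while Nlrc5 fell by 17.6%. These were the only members called, 2 of 10 where 32.5% of all genes tested passed (15% higher, 17.4% lower). That background depends on single libraries: of 10810 genes, 3509 were called with all libraries, 1907, 2006 and 2017 without shEV replicate 1, 2 and 3, and 5556 without shKdm5b replicate 1.

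B2m was at 22825, 22861 and 23264 normalised counts with shEV and 28548, 25654 and 28223 with shKdm5b. All 3 knockdown libraries were above all controls (0.25 ± 0.052; limma adjusted p = 0.00699), and the call held under every alternative. H2-K1 was at 13821, 13505 and 13529 against 16547, 14220.4 and 15169.7, and H2-D1 at 20640.4, 20631 and 20587 against 24557, 21246 and 22602. Both heavy chains were thus also higher in 3 of 3 libraries, highest in replicate 1, but with log2 differences of 0.16 ± 0.057 and 0.14 ± 0.057 they did not pass (limma adjusted p = 0.057 and 0.0876). H2-K1 passed in 5 of 15 fits, among them median centring, quantile normalisation and the fits without shKdm5b replicate 1 or 2 (limma adjusted p = 0.0395, 0.012, 0.0293 and 0.0206). H2-D1 passed in 2 of 15 fits, with quantile normalisation and without shKdm5b replicate 2 (limma adjusted p = 0.0183 and 0.0291), and in those fits H2-K1, H2-D1 and B2m were all called higher.

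Nlrc5, the activator of class I transcription, was at 1198, 1209 and 1210.3 with shEV and 857, 985 and 1139.9 with shKdm5b, below the controls in 3 of 3 libraries, while the knockdown libraries spread widely (-0.22 ± 0.072; limma adjusted p = 0.0414). The call was lost without any 1 shEV library (limma adjusted p = 0.108 to 0.115), without shKdm5b replicate 2 (0.0973), with no filter (0.0506) and with quantile normalisation (0.0524). The differences of Nlrc5 and B2m thus had opposite signs.

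The transporter, loading and immunoproteasome genes overlapped between shEV and shKdm5b. Tap1 was at 539, 602 and 587 against 563, 522 and 542, Tap2 at 436, 424 and 411 against 481, 432 and 479, and Tapbp at 1428, 1476 and 1378 against 1571, 1280.2 and 1402. Psmb8 was at 309, 308 and 270.0 against 335, 274 and 334, and Psmb9 at 176, 169 and 148 against 229, 162 and 171, both low for this table. Psmb10 was at 1226, 1320.2 and 1223 against 1291, 967 and 1017, with replicate 1 inside the control range and replicates 2 and 3 below it, and without shKdm5b replicate 1 it was called lower (-0.27; limma adjusted p = 0.000786). Libraries did not overlap between groups in 4 of 10 members, against 49% of tested genes. Summed monocyte and macrophage markers were at 2435 to 2461 CPM with shEV and 2114 to 2448 with shKdm5b (7 of 10 lower, 1 higher), and 5 mast and basophil markers, of which 2 are listed in this table and Cpa3, Gata2 and Fcer1a are at 0 or not listed, at 2.88 to 3.48 and 85.7 to 97.8 CPM. Mcpt8, the only mast and basophil marker tested here, rose from 72.0 ± 8.99 to 2644 ± 175 normalised counts, 36.7 times (limma adjusted p = 1.04e-08). It passed the filter on low values (86.6 normalised counts) only through the shKdm5b libraries, so the call is not independent of that selection. The part of either marker list in these differences was not tested.

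In MLL-AF9 cells with WT Kdm5b the members moved both ways. H2-K1, B2m, Tapbp and Psmb10 rose, by 9.32%, 13.5%, 25.4% and 17%, and Tap1, Tap2, Psmb8 and Nlrc5 fell, by 16.3%, 11.5%, 20.1% and 15.3%. H2-D1 and Psmb9 did not pass. The 8 of 10 called compare with 62.2% of all genes tested in this table (29.8% higher, 32.4% lower), and all 10 members had libraries that did not overlap between the groups, where 79.4% of genes had. All 8 calls held under every alternative run.

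Tapbp was at 2803 and 2754 normalised counts with EV and 3484 and 3487 with WT (0.28 ± 0.026; limma adjusted p = 5.40e-10). B2m was at 11563 and 11948 against 13123 and 13554 (0.17 ± 0.024; limma adjusted p = 4.75e-07), and H2-K1 at 8267 and 8293 against 8831 and 9272 (0.12 ± 0.024; limma adjusted p = 0.000127). H2-D1 was at 11040.5 and 10995 against 11145 and 11785, a smaller gap of 0.054 ± 0.025 (limma adjusted p = 0.0584). Psmb10 was at 1194 and 1193 against 1409 and 1385. In each of these genes both WT libraries were above both EV libraries.

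Psmb8, the inducible counterpart of the chymotrypsin-like subunit, was at 5222 and 5264 with EV and 4112 and 4265 with WT (-0.29 ± 0.025; limma adjusted p = 2.04e-10). Tap1 was at 1555 and 1658 against 1358 and 1332, and Tap2 at 3283 and 3236 against 2811 and 2957 (-0.19 ± 0.032 and -0.15 ± 0.028; limma adjusted p = 1.00e-05 and 3.79e-05). Nlrc5 was at 489 and 508 against 424 and 421, where its level is low for the table and the scale compressed (-0.13 ± 0.037, and -0.24 by voom on recovered counts). Psmb9 was at 1370.0 and 1362 against 1299 and 1329. Psmb8, Psmb9, Tap1 and Tap2 are neighbours on chromosome 17, and 3 of the 4 were called lower with WT, where 32.4% of all genes tested were. The part of position in this was not tested.

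The demethylase-dead H499A was compared with the same 2 EV libraries. No heavy chain was called. Tapbp rose by 41.0% and B2m by 5.80%, while Tap1, Tap2, Psmb8, Psmb9 and Nlrc5 fell, by 20.7%, 23.5%, 23.3%, 10.9% and 12.4%. These are 7 of 10 members, 2 higher and 5 lower, beside 49.6% of all genes tested (22.7% higher, 26.9% lower), and in 8 of 10 the libraries did not overlap (all genes, 75%).

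With H499A, Tapbp was at 3891 and 3943 normalised counts (0.43 ± 0.026; limma adjusted p = 1.87e-13), Psmb8 at 3992 and 4052 (-0.34 ± 0.025; limma adjusted p = 1.30e-11) and Tap2 at 2501 and 2487 (-0.33 ± 0.028; limma adjusted p = 1.75e-10). Tap1 was at 1268 and 1280.5 and Psmb9 at 1229 and 1205, all below both EV libraries (limma adjusted p = 2.86e-07 and 0.00196). H2-D1 was at 10988 and 11055, overlapping EV, with a 95% interval of -0.050 to 0.051, and H2-K1 at 8622 and 8589.8 (0.052 ± 0.024; limma adjusted p = 0.0774). Psmb10 was at 1261 and 1166, on either side of EV. B2m was at 12444 and 12430.3 (limma adjusted p = 0.0078), a call lost without EV replicate 1 (0.142), without H499A replicate 1 or 2 (0.0641 and 0.059) and with no trend. Nlrc5 was at 447 and 427 (-0.10 ± 0.037, and -0.19 by voom; limma adjusted p = 0.0258, and 0.134 and 0.155 without EV or H499A replicate 2).

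WT and H499A were then tested against each other. Tapbp was lower with WT (-0.15 ± 0.026; limma adjusted p = 2.88e-05), and Tap2 (0.17 ± 0.028; limma adjusted p = 7.20e-06), Psmb10 (0.15 ± 0.033; limma adjusted p = 0.00045) and B2m (0.097 ± 0.024; limma adjusted p = 0.0012) were higher with WT. H2-K1 and Psmb9 also passed as higher (limma adjusted p = 0.0205 and 0.0314), but both calls were lost without H499A replicate 1 or 2 or WT replicate 2, with limma adjusted p of 0.0691 to 0.256, and with median centring. The 6 of 10 called, 5 higher and 1 lower, compare with 54.4% of all genes tested (28.2% higher, 26.3% lower), and libraries did not overlap in 10 of 10 members, against 75.8% of tested genes. H2-D1 was higher with WT in both libraries but did not pass (0.054 ± 0.025; limma adjusted p = 0.0672), and it passed in 3 of 14 fits, with quantile normalisation, robust settings or without WT replicate 1 (limma adjusted p = 0.00125, 0.0487 and 0.000826). For Tap1, Psmb8 and Nlrc5 no difference passed (Psmb8 passed in 2 of 14 fits), with 95% intervals of -0.0084 to 0.12, -0.00060 to 0.10 and -0.10 to 0.051. WT and H499A differ in Kdm5b level too, 1413 ± 4.48 against 294 ± 21.5, so the mutation and the level cannot be told apart here, and the labels do not give the species of the introduced sequence.

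Summed monocyte and macrophage markers were at 1361 to 1429 CPM with EV, 4036 to 4178 with WT and 2754 to 2756 with H499A, with 9 and 8 of 9 tested markers higher than EV. Dendritic markers, of which 3 of 8 are listed in this table and Zbtb46, Siglech, Batf3, Clec9a and Cd209a are at 0 or not listed, summed to 87.0 to 89.6 CPM with EV, 37.0 to 38.0 with WT and 44.7 to 47.1 with H499A. The 2 tested, Flt3 and Itgax, were called lower than EV. Flt3 was at 0.344 times EV with WT and 0.522 times with H499A, and Itgax at 0.806 and 0.399 times. Directly, Flt3 with WT was 0.660 times H499A and Itgax 2.02 times. Mast and basophil markers, of which 3 of 5 are listed, summed to 89.2 CPM with EV, 51.6 to 54.9 with WT and 53.6 to 55.5 with H499A. Mcpt8 was called lower, at 0.178 and 0.318 times EV, and Gata2 at 0.647 and 0.656 times. Mcpt8 passed the filter on low values (145 normalised counts) only through EV, at 244 ± 0.157, so its calls are not independent of that selection. The part of these lists in the class I differences was not tested. For 1 gene alone, the smallest p of an exact 2-sided permutation test would be 0.333 with 2 against 2 libraries and 0.1 with 3 against 3.

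Some members share sequence or position with other genes, and whether counting used the strand is not given in the sources used here. Tapbp shares 26.9% of its 31-base words, mainly with Gm19412, antisense to it, and with Zbtb22, whose gene overlaps its 5′ part on the same strand. Zbtb22 was at 926 ± 23.8 normalised counts with EV, 866 ± 58.3 with WT and 852 ± 1.73 with H499A. Neither difference from EV was called (limma adjusted p = 0.117 and 0.0672). With JQEZ5 it was at 0.901 times DMSO (limma adjusted p = 0.0573), on the same side as Tapbp, and between the inhibitors it was 1.14 times as high with UNC1999 (limma adjusted p = 0.0147), called in the direction of Tapbp. Gm19412 averaged 3.24 to 12.1 normalised counts over the groups, and Gm20496, antisense to Psmb8 and Tap2, 5.62 to 30.9, both far below the members they overlap. The part of shared reads in the member differences was not tested.

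**Figure D3:**
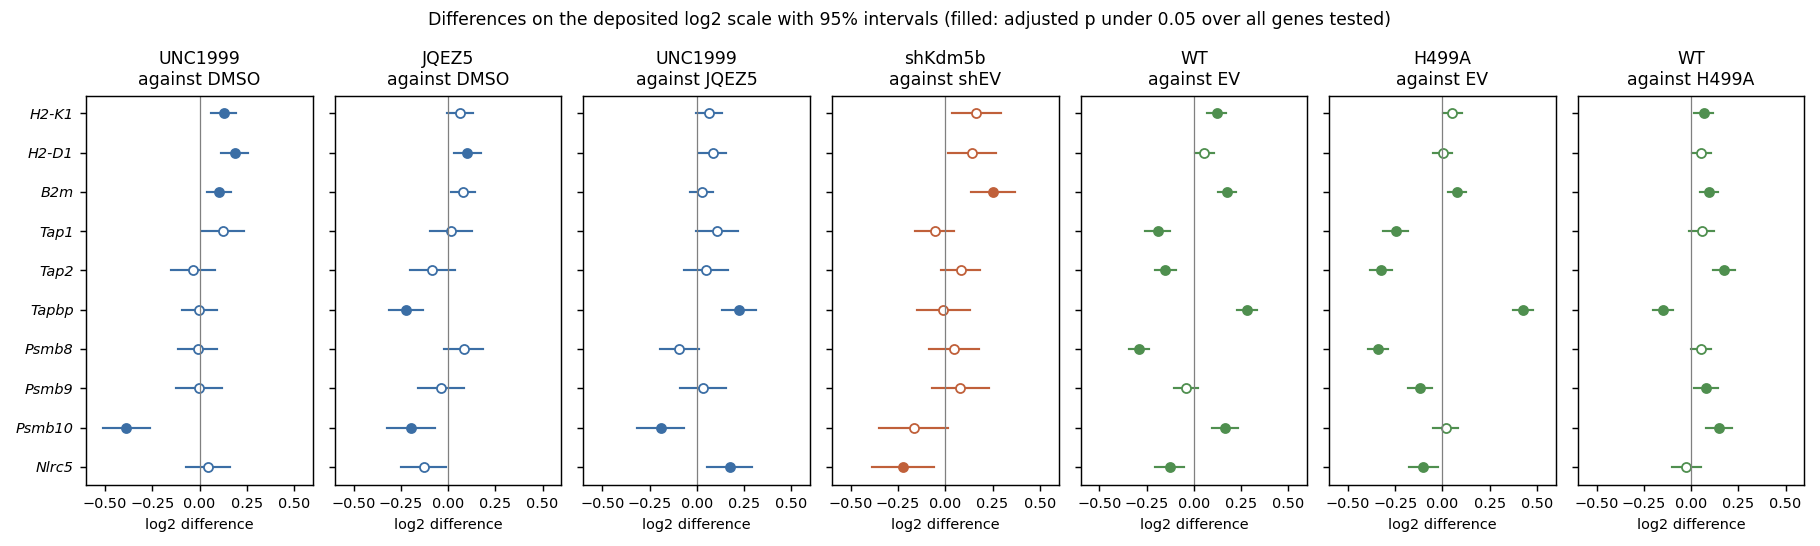
Log2 differences of the 10 members on the deposited scale in the 7 comparisons, with 95% intervals from limma and filled points where the adjusted p over all genes tested is under 0.05. B2m lies right of 0 in all 7 panels (left of 0 in the first 3 after quantile normalisation), and Tapbp has the largest single difference, 0.43 for H499A against EV.

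The balance of inducible to constitutive proteasome subunits was read as a ratio of counts per kb within each library, which does not depend on how libraries were scaled. It does depend on exon lengths, taken over all transcripts together. The size of a ratio is thus approximate, and different pairs are not comparable in size. Without division by length Psmb8 to Psmb5 was 2.41 and 2.46 in EV. Psmb8 replaces Psmb5, Psmb9 replaces Psmb6, and Psmb10 replaces Psmb7 in the immunoproteasome. The ratio Psmb8 to Psmb5 was 0.0169, 0.0179 and 0.0163 in shEV libraries, 0.223, 0.227 and 0.232 in DMSO and 0.640 and 0.654 in EV. It was 0.483 and 0.480 with WT and 0.438 and 0.474 with H499A, below EV in all 4 libraries. With shKdm5b it was 0.0215, 0.0224 and 0.0276, above shEV in 3 of 3, and with UNC1999 0.276, 0.249 and 0.234, and with JQEZ5 0.248, 0.244 and 0.253, all above DMSO. Psmb5 itself was at 1074, 1151 and 1104 normalised counts with DMSO and 974, 1000.2 and 1004 with UNC1999. It was at 4877, 4587 and 4408 with shEV and 4142, 3240.2 and 3222 with shKdm5b, whereas with JQEZ5 it overlapped DMSO.

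Psmb9 to Psmb6 was 0.0173 ± 0.00121 in shEV and 0.0227 ± 0.00191 in shKdm5b, 0.262 ± 0.00251 in EV, 0.262 ± 0.00674 with WT and 0.212 ± 0.000223 with H499A. In DMSO it was 0.194, 0.160 and 0.183, in UNC1999 0.158, 0.156 and 0.134 and in JQEZ5 0.161, 0.140 and 0.154. Psmb10 to Psmb7 was 0.262, 0.316 and 0.244 in DMSO, 0.170, 0.217 and 0.197 in UNC1999 and 0.209, 0.197 and 0.203 in JQEZ5, so this ratio was lower under both inhibitors without overlap while the Psmb8 ratio was higher. In shEV it was 0.402 ± 0.0273, the highest group mean in NUP98-NSD1 cells, although the other 2 ratios had their lowest group mean there. WT, at 0.875 ± 0.0325, lay above EV, at 0.726 ± 0.00333, and H499A, at 0.674 ± 0.0244, below it. A ratio also moves with its constitutive subunit. Psmb6 was at 1337, 1394 and 1334 normalised counts with DMSO, 1567, 1562 and 1728 with UNC1999 and 1611, 1497 and 1509 with JQEZ5. Psmb7 was at 3312 and 3287 with EV and 3661 and 3563 with H499A. With UNC1999 Psmb7 was lower than with DMSO, as Psmb10 was. These ratios are descriptions with no test.

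**Figure D4:**
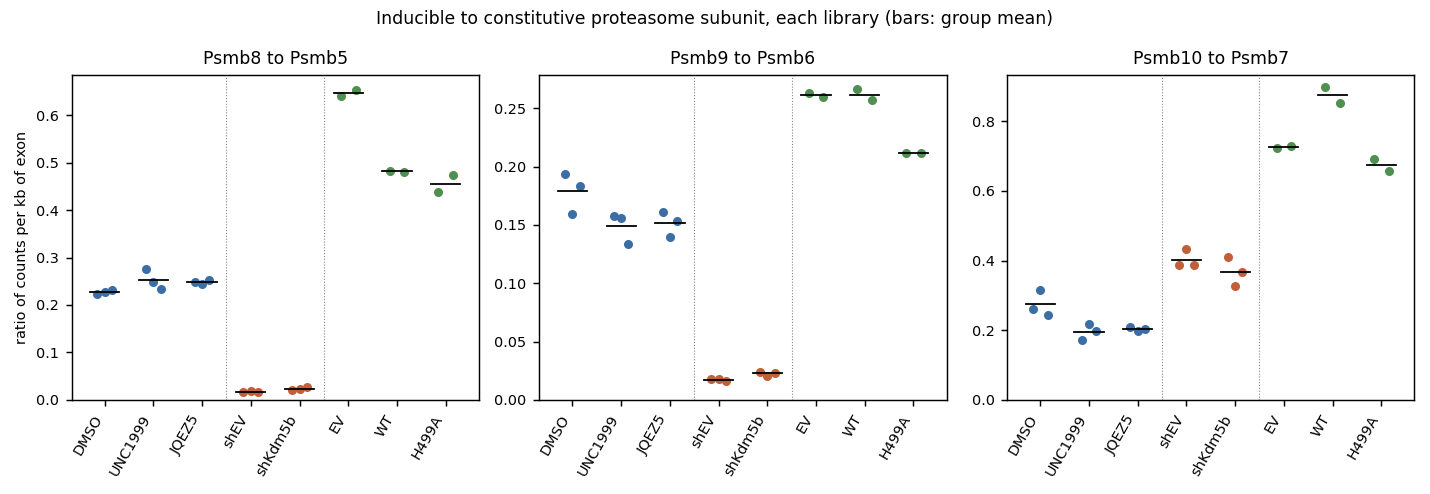
Ratio of each inducible proteasome subunit to the constitutive subunit it replaces, as counts per kb of exon, for every library, with bars for group means and axes from 0. Psmb8 to Psmb5 and Psmb9 to Psmb6 average 0.0170 and 0.0173 in shEV, while Psmb10 to Psmb7 is 0.402 there. Without division by length these ratios are 0.0634, 0.0357 and 0.193 in shEV replicate 1, so gaps between pairs depend on the exon lengths used.

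The rest of the pathway was read from 3 lists. The first holds 22 other class I and proteasome genes: nonclassical heavy chains, chaperones and proteasome parts. With UNC1999, 6 rose and 9 fell of 22 tested (all genes, 23.9% and 24%). The chaperone calreticulin (Calr) fell to 0.848 times DMSO, the disulfide isomerase Pdia3 of the loading complex to 0.853 times and the translocon subunit Sec61a1 to 0.862 times (limma adjusted p = 1.04e-06, 2.35e-05 and 9.16e-06), while the nonclassical heavy chain H2-T23 rose to 1.19 times (limma adjusted p = 0.000124). With JQEZ5, 5 rose and 2 fell of 22 tested (all genes, 13.1% and 10.5%), and Calr rose to 1.08 times DMSO. Between the inhibitors Calr was 0.788 times as high with UNC1999 as with JQEZ5 (limma adjusted p = 5.58e-08). The median log2 difference of the list was 0.023 with UNC1999 and 0.025 with JQEZ5, beside -0.011 and 0.0059 for all genes.

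In the knockdown, 4 rose and 4 fell of 21 tested (all genes, 15% and 17.4%). Calr, Canx and Sec61a1, which fold and admit new chains in the endoplasmic reticulum, fell to 0.772, 0.829 and 0.759 times shEV (limma adjusted p = 0.00236, 0.00418 and 0.000358), and the nonclassical heavy chain H2-T22 rose to 1.23 times. In MLL-AF9 cells Calr and Pdia3 rose with WT, to 1.26 and 1.25 times EV, and with H499A, to 1.19 and 1.25 times, as did Tapbp, which works with them in peptide loading. H2-T24, a nonclassical heavy chain, fell from 105 ± 7.16 normalised counts with EV to 34.9 ± 4.82 with WT and rose to 209.9 ± 14.4 with H499A (n = 2 each; limma adjusted p = 5.98e-08 and 2.79e-07). H2-T24 passed the filter on low values (145 normalised counts) only through the H499A libraries, so its calls are not independent of that selection. In the list as a whole, 6 rose and 8 fell of 21 tested (all genes, 29.8% and 32.4%) with WT and 9 rose and 4 fell of 21 tested (all genes, 22.7% and 26.9%) with H499A. Its medians were -0.00024, -0.035 and 0.044 in the 3 comparisons, beside -0.011, -0.0083 and -0.012 for all genes.

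The second list holds 27 regulators of class I transcription. With UNC1999, 8 rose and 6 fell of 25 tested (all genes, 23.9% and 24%). The feedback inhibitor Socs3 rose to 1.59 times DMSO, and the kinases Jak1 and Jak2 and the receptor chain Ifngr2 of interferon signalling rose to 1.25, 1.26 and 1.2 times (limma adjusted p = 4.62e-09, 1.89e-07, 1.79e-05 and 5.67e-06). Irf1, a direct activator of class I and immunoproteasome promoters that was singled out after its values were seen, fell to 0.718 times DMSO with UNC1999 and 0.775 times with JQEZ5 (limma adjusted p = 0.000397 and 0.00766). With JQEZ5, 3 rose and 8 fell of 25 tested (all genes, 13.1% and 10.5%), among them Tyk2, Irf8 and Stat2, lower at 0.851, 0.860 and 0.820 times. The medians of the list were -0.026 and -0.064, beside -0.011 and 0.0059 for all genes.

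In the knockdown, 7 rose and 3 fell of 25 tested (all genes, 15% and 17.4%). Irf8, a myeloid interferon regulatory factor, rose to 1.56 times shEV, the receptor chain Ifngr1 to 1.36 times and Stat2 to 1.4 times, while Jak1 fell to 0.818 times (limma adjusted p = 0.000177, 0.000181, 0.00279 and 0.00389), and Irf1 rose to 1.21 times (limma adjusted p = 0.0116). With WT, 16 rose and 5 fell of 26 tested (all genes, 29.8% and 32.4%), with Irf8 at 1.60 and the receptor chains Ifnar2, Ifngr2 and Ifnar1 at 1.5, 1.36 and 1.31 times EV. With H499A, 12 rose and 6 fell of 26 tested (all genes, 22.7% and 26.9%). There Irf7 rose from 94.8 ± 16.9 to 312 ± 15.2 normalised counts, and Irf9, part of a factor downstream of interferon receptors, rose to 2.07 times EV (limma adjusted p = 4.78e-12 and 1.12e-12). Irf7 passed the filter on low values (145 normalised counts) only through the H499A libraries, so its calls are not independent of that selection. Irf1 fell under both constructs, to 0.730 times EV with WT and 0.820 times with H499A (limma adjusted p = 5.23e-07 and 0.000298). Directly tested, Irf7 with WT was 0.191 times its level with H499A (limma adjusted p = 4.20e-14). Medians were 0.034, 0.11 and 0.015, beside -0.011, -0.0083 and -0.012 for all genes.

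The third list holds 20 genes known as targets of interferon gamma, of which 15 or 16 were listed per table. In the knockdown, 6 of 11 tested rose (all genes, 15%) and the other 5 did not pass. The chemokine gene Cxcl10 rose from 199 ± 17.1 to 374 ± 28.9 normalised counts (n = 3 each), and the GTPase genes Gbp2, Gbp7 and Ifi47 rose to 2.49, 1.80 and 1.46 times shEV (limma adjusted p = 0.000263, 0.000477, 0.0019 and 0.000501). Of the members, B2m passed as higher in that comparison, and H2-K1 and H2-D1 were higher in 3 of 3 libraries without passing. Nlrc5 passed as lower, and Tap1, Tap2, Tapbp, Psmb8, Psmb9 and Psmb10 overlapped shEV and did not pass. With UNC1999, 2 rose and 3 fell of 11 tested (all genes, 23.9% and 24%): Cd274, which codes for the checkpoint ligand PD-L1, rose to 1.93 times DMSO and the adhesion molecule Icam1 to 1.61 times, while Gbp3 and Cxcl10 fell to 0.658 and 0.617 times. With JQEZ5, 1 rose and 1 fell of 11 tested (all genes, 13.1% and 10.5%), Cd274 up at 1.36 and Cxcl10 down at 0.695 times.

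In MLL-AF9 cells the same list went different ways. With WT, 2 rose and 5 fell of 10 tested (all genes, 29.8% and 32.4%): Gbp7, Tgtp2 and Ifi47 fell to 0.589, 0.489 and 0.699 times EV and Cd274 rose to 1.62 times. With H499A, 6 rose and 2 fell of 10 tested (all genes, 22.7% and 26.9%): Cxcl10 rose from 58.1 ± 11 to 208 ± 16.4 normalised counts and Cd274 to 2.11 times EV, while Ifi47 and Gbp3 fell to 0.677 and 0.753 times (limma adjusted p = 1.07e-10, 7.89e-09, 2.08e-08 and 2.76e-06). Cxcl10 passed the filter on low values (145 normalised counts) only through the H499A libraries, so its calls here are not independent of that selection. Directly, Tgtp2, Gbp7 and Cxcl10 with WT were 0.421, 0.564 and 0.369 times their H499A level (limma adjusted p = 8.26e-10, 2.58e-09 and 4.18e-09). Of the members, Tap2, Psmb10, B2m, H2-K1 and Psmb9 were called higher with WT than with H499A, H2-K1 and Psmb9 not in every fit. Tapbp was called lower, and Psmb8, Tap1, H2-D1 and Nlrc5 did not pass between the constructs. Medians of the list were 0.033, -0.032, 0.26, -0.040 and 0.12 for UNC1999, JQEZ5, shKdm5b, WT and H499A against their controls, beside -0.011, 0.0059, -0.011, -0.0083 and -0.012 for all genes.

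How the members varied with each other was described over the 21 libraries after centring each gene on its mean in each table. These correlations span libraries of 3 experiments that share scaling within a table, and they carry no test. H2-K1 and H2-D1 had a Pearson r of 0.949 and H2-K1 and B2m 0.875, whereas Tap2 and Psmb8 had 0.741 and Tapbp and Psmb8 -0.691. Of 9029 genes tested in all tables, those closest to the mean profile of the 10 members were H2-Q10 (0.84), Hps1 (0.83), Cdk5 (0.83), Rpl28 (0.81) and Scaf1 (0.80), of which H2-Q10 is itself a class I heavy chain gene that shares sequence with H2-K1. Those closest to Nlrc5 were Heatr5b (0.85), Slc25a25 (0.85), Tmem245 (0.82), Eftud1 (0.80) and Dock8 (0.80).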

How the data were processed

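RNA sequencing of 21 libraries was read from 3 tables, 1 each for the inhibitor, knockdown and overexpression experiments. Per the submitters' processing notes the authors used STAR 2.4.2, Salmon 0.1.19 and DESeq2 1.38.2 with mm10 (GRCm38.p4), and the deposited values are on a variance-stabilised log2 scale, which compresses low genes. Per the labels, 1 µg of RNA went into libraries from either of 2 kits, but the kit of each library is not given in the sources used here. Reads shared by near-identical or overlapping genes could shift single members.

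The transformation was inverted in closed form from each table's lowest value (6.88278, 7.43603 and 8.18232). This gave whole multiples of 1 step per library for 100% of values at a tolerance of 0.05, hence whole counts, depth and normalised counts. Levels are normalised counts or CPM of those totals. A gene was tested if as many libraries as the smallest group has were 1 log2 unit or more over that lowest value (59.0, 86.6 and 145 normalised counts), which left 10694, 10810 and 9458 of the 14178, 15623 and 13949 listed. Tests used limma 3.58.1 in R 4.3.3 on the deposited values, with 1 mean per group and a trended prior, and Benjamini-Hochberg adjustment over all tested genes, with calls at an adjusted p under 0.05. The fit was tested on simulated data. A difference is treated minus control, or the first group minus the second.

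Members, lists and tests were chosen with earlier results of these data known. Named genes are all members, Kdm5b, up to 4 called genes of lowest adjusted p per list and comparison, and the 5 genes of most similar profile to the member mean and to Nlrc5. Outside that rule stand the subunits of the planned ratios, and Irf1, cell type markers and genes that overlap members, named after values were seen. Some genes of these lists are not reported here. No 2 libraries of a group agreed within sampling noise (chi-square over degrees of freedom, 1.5 to 18.3), so none was counted as a duplicate. Alternatives were other filters, median centring, quantile normalisation, no trend, robust settings, a replicate block, only the 2 groups compared, voom on recovered counts, and leaving out each library.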

Additional observations from a re-analysis of the deposited data

How the results depend on the processing

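Of 70 pairs of a member and a comparison, 33 were called. Of these, 23 were called in every setting run and 10 in some, and 24 of the other 37 were called in none. After quantile normalisation the log2 difference of B2m was -0.045 for UNC1999 against DMSO, -0.031 for JQEZ5 against DMSO and -0.015 for UNC1999 against JQEZ5, and for JQEZ5 against DMSO that of H2-K1 was -0.0046 and of Tap1 -0.0023. For shKdm5b against shEV, Tapbp was at 0.0020 with median centring and 0.0093 with quantile normalisation. Members called in that comparison numbered 1 with no filter. The cause of these changes was not tested. Leaving out 1 library at a time gave 1 to 4 members called for JQEZ5 against DMSO, 1 to 4 for UNC1999 against JQEZ5 and 1 to 4 for shKdm5b against shEV, where the count over all genes ran from 1907 to 5556.

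Differences that did not pass the test also changed sign with 1 library left out. For UNC1999 against DMSO the ranges were -0.046 to 0.031 for Psmb9, -0.053 to 0.039 for Tapbp, -0.050 to 0.029 for Psmb8 and -0.073 to 0.026 for Tap2. For JQEZ5 against DMSO they were -0.094 to 0.016 for Psmb9 and -0.0040 to 0.050 for Tap1. For UNC1999 against JQEZ5 they were -0.0057 to 0.11 for Tap2, -0.020 to 0.090 for Psmb9 and -0.0033 to 0.053 for B2m. Tapbp ran from -0.074 to 0.047 for shKdm5b against shEV, and for H499A against EV H2-D1 ran from -0.0038 to 0.0046 and Psmb10 from -0.024 to 0.057. With 2 libraries per group, the remaining library is assumed to vary like the other groups.

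Same-numbered libraries had correlated deviations of -0.15 to 0.22, not all above 0.1, so the numbers were not taken to pair libraries. With the replicate number as a block, 5, 3, 3, 3, 8, 7 and 6 members were called for UNC1999 and JQEZ5 against DMSO, UNC1999 against JQEZ5, shKdm5b against shEV, WT and H499A against EV, and WT against H499A. The added members were Tap1 with UNC1999 (limma adjusted p = 0.0457) and H2-K1 with shKdm5b (limma adjusted p = 0.0494). Depth limits Psmb10 with UNC1999 and Psmb9 in the knockdown most, where 1 library held 106 and 125 reads of the gene.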
